A study of Mus musculus with 6 samples.

Results

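The clustered Zfp genes are protein-coding mouse genes that encode zinc-finger proteins and lie beside one another on the chromosome. Members were the genes named Zfp followed by a number, leaving out Zfp36 and chromosome Y, whose start lies within 200 kb of the start of another such gene. They numbered 231 of the 48709 genes counted. Of 364 Zfp genes in all, the other 133 were solitary. The members formed 55 clusters on 15 chromosomes, with 2 to 19 members each, and chromosome 7 alone held 76 members in 15 clusters. Just inside the distance limit were Zfp986 and Zfp433, whose nearest neighbour starts 198.1 and 197.1 kb away. Zfp433, with 24.5% unique windows, had a log2 fold change of 0.32 (FDR = 0.0296, and 0.559 with the correction described further on). Zfp986, with 4 to 17 counts per library and 30.0% unique windows, had one of 1.40 (FDR = 0.0221, and 0.0563 with this correction), but its counts are high enough for the test in the CHD4-APR libraries alone. Just outside were Zfp969 and Zfp966, at 222.2 and 226.7 kb, with log2 fold changes of 0.62 and 0.66.

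RNA was sequenced from G1E-ER4 cells, red-cell progenitors of the mouse grown as a line, which originated from embryonic stem cells and hold a GATA-1 that tamoxifen switches on. In all 6 samples a peptide carrying the Tat sequence was added to the cells at 10 μM. Tamoxifen, which moves GATA-1 into the nucleus and starts erythroid differentiation, was added 2 h later. RNA was taken after another 28 h. In the 3 CHD4-APR samples the peptide held the aliphatic stretch of the aggregation-prone region (APR) of the chromatin remodeler CHD4, and in the 3 CTRL samples a run of alanines. The comparison asks how transcription in differentiating cells differs when a peptide that mimics this region is present, where the region is thought to contribute to the place of CHD4 in the NuRD and ChAHP complexes. The tamoxifen concentration is given in 2 ways by the sources, as 100 nM and as 100 μM. The model is 1 cell line, and no source says that the 3 samples of a group were separate cultures, so p-values measure the spread between these samples, which may be technical.

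Most C2H2 zinc-finger proteins bind DNA through an array of fingers, each holding a zinc ion between a pair of cysteines and a pair of histidines. Many carry a KRAB domain, which recruits TRIM28 and, through it, the histone methyltransferase SETDB1 and HP1 proteins, and these repress transposable elements and some genes. Their genes multiplied by tandem duplication, and in mouse cells their finger-coding exons are themselves known to carry H3K9me3 and HP1. CHD4 is a subunit of NuRD, which associates with TRIM28, and of ChAHP, which also holds ADNP and HP1.

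The unit repeated in these genes is the finger. The first finger with a canonical linker is shown for 3 members that rose, in mRNA sense from GENCODE M21 transcripts, with the codons of the cysteines and histidines in capitals.
Zfp871: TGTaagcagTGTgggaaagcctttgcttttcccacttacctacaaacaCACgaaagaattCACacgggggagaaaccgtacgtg
Zfp84: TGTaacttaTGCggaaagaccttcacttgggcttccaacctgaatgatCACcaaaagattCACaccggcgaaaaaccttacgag
Zfp445: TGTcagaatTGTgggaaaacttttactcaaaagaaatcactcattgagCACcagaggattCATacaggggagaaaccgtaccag
Zfp871 and Zfp445 share 54 of these 84 bases, Zfp871 and Zfp84 share 53, and Zfp84 and Zfp445 share 51. Translations of the members held a median of 11 such fingers and at most 27, and 224 of 231 held at least 3. The pattern of a KRAB box was found in 178 members (77.1%) and in 36 of the 133 solitary genes (27.1%). Because of such repeats reads can fit more than 1 member. In 179 members at least 90% of the 100-base windows of the exons were found in no other gene, and in 6 members under 10% were. Windows also count as shared where exons of another gene overlap. Among the 6, such overlap covers 94.8% of the exonic bases of Zfp784, 100% of Zfp935 and 96.4% of Zfp708.

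Promoters are shown for the member with the largest rise among well-counted members (Zfp871), for the member with the highest level per kb among the 12 named for the largest rises (Zfp445) and for the member named for the largest fall (Zfp637). They run from 250 bases before to 50 bases after the RefSeq start, on GRCm38.p6, with the motifs searched in capitals.
Zfp871, chr17:32788238-32788537, minus strand: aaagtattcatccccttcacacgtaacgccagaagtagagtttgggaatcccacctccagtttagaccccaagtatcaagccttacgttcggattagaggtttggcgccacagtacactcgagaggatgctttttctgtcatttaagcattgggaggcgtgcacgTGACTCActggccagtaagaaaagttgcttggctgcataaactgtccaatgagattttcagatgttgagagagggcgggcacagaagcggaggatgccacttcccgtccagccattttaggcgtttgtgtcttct
Zfp445, chr9:122865957-122866256, minus strand: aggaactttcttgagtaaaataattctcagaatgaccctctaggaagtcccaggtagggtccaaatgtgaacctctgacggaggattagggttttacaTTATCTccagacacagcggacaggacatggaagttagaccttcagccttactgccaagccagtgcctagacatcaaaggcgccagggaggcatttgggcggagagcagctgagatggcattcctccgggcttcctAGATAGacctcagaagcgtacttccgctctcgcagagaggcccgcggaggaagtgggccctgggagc
Zfp637, chr6:117840931-117841230, plus strand: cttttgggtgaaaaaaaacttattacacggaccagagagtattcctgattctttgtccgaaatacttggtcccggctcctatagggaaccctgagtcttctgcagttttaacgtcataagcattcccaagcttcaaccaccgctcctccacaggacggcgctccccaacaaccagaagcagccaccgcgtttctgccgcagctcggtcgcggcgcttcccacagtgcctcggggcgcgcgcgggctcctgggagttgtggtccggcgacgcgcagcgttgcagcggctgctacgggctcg
The Zfp871 promoter held 1 AP-1 motif (TGACTCA) and the Zfp445 promoter 2 GATA motifs (GATAA or GATAG after an A or a T), and Zfp637 held none of the motifs. CpG dinucleotides numbered 12, 10 and 27 in the 3 promoters. RefSeq promoters matched 196 of the 231 members and 7988 of the 10100 protein-coding genes tested. On either strand, a GATA motif was present in 26.5% of member promoters and 18.2% of all, AP-1 in 3.57% and 3.07%, the CRE motif (TGACGTCA) in 3.06% and 3.57%, and the YY1 motif (AAGATGG) in 7.65% and 8.17%. Among the promoters of the members that rose, 11 of 46 (23.9%) held a GATA motif, 4 (8.7%) an AP-1 motif, 3 (6.52%) a CRE motif and 4 (8.7%) a YY1 motif. Of 11 promoters of members that fell, 2 (18.2%) held a GATA motif and none the others. The median number of CpG dinucleotides was 11 in member promoters and 21 in all, and it was 10 in members that rose and 22 in members that fell.

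Total counts lay between 41687482 and 49784177 per library, and 12722 genes, 181 of them members, had enough counts to be tested. The erythroid markers were all present, led by Hbb-bs at a mean of 22200 CPM, and their summed level was 72800 to 78200 CPM in the CTRL and 62400 to 66400 in the CHD4-APR libraries, with 2 of 12 higher and 5 lower. All 5 markers of embryonic stem cells had 0 counts in every library. Of the myeloid markers Ly6g and Mpo were at 0, of the megakaryocyte markers Gp1bb, and of the lymphoid markers Cd3e and Ms4a1. Summed levels in the CTRL and CHD4-APR libraries were 8.36 to 9.75 and 6.76 to 8.23 CPM for the 5 myeloid markers, 46.7 to 48.8 and 39.9 to 45.7 for the 4 megakaryocyte markers, and 0.304 to 0.59 and 0.328 to 0.604 for the 4 lymphoid markers. The part of these differences in the results was not tested.

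The clustered Zfp genes were called higher with the CHD4-APR peptide more often than lower, and the size of the difference depended on a correction for the GC content and length of transcripts. Of the 181 members tested, 53 were higher and 13 lower at a false discovery rate (FDR) under 0.05 by edgeR's quasi-likelihood test, and 115 did not pass. Of all genes tested, 20.4% were called higher and 17.8% lower, against 29.3% and 7.18% of the members. The median log2 fold change was 0.13 in the members and -0.01 in all genes. It was above 0 in 125 members (69.1%), with an interquartile range from -0.03 to 0.35. With the correction, described further on, 29 members were higher and 16 lower (16.0% and 8.84%), against 11.7% and 16.0% of all genes, and the median was 0.0068 in the members and -0.02 in all genes. Under 1 library left out, the number of lower members fell to 7 without CHD4-APR replicate 1, 7 without replicate 2, 6 without replicate 3, 8 without CTRL replicate 1 and 7 without CTRL replicate 3.

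Summed over the members, TMM-normalized CPM (reads of a gene relative to the library total, scaled) came to 2525, 2658 and 2616 with CTRL and to 2889, 2893 and 2796 with CHD4-APR. The groups did not overlap, with means of 2600.0 ± 67.7 and 2859 ± 54.9 (SD, n = 3 each). The median deviation of the members from their CTRL mean, on the log2 scale, was -0.07, 0.05 and 0.01 with CTRL and 0.15, 0.16 and 0.10 with CHD4-APR. Of single members, 77 of 181 (42.5%) had groups that did not overlap, 60 higher and 17 lower, whereas 49.9% of all genes did. Among members that passed the test, 15 rose by at least 1.5-fold, a size reached by 3.48% of all genes, and 13 did among members with at least 10 counts in every library. The other 2, Zfp986 and Zfp600, had CTRL means of 0.13 and 0.136 CPM and passed the filter on low counts only through the CHD4-APR libraries, so their calls are no support.

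The members not tested numbered 50. In 18 of them no library had a count, and the highest count in any library was 20. A count of 0 allows a level of up to 0.0603 to 0.072 CPM (3 counts of a library's total), where such limits cover counting error only. Tested members had mean levels from 0.236 to 151 CPM, with a median of 9.39 CPM, and 159 reached 1 CPM. Per kilobase of exon, the median level was 2.43 CPM in the members and 5.12 CPM in all genes tested. At this scale the highest member was Zfp110, which encodes a factor that binds the p75 neurotrophin receptor, at 36.7 CPM per kb. It had 142, 153 and 145 CPM in the CTRL and 157, 157 and 153 CPM in the CHD4-APR libraries, which overlapped, and its log2 fold change of 0.09 ± 0.044 (SE) did not pass (FDR = 0.132). Zfp972, at 31.2 CPM per kb, had 28.2 to 29.2 CPM with CTRL and 23.8 to 26.2 with CHD4-APR. It fell by 0.17 on the log2 scale (FDR = 0.043), a call lost in each of the 6 fits that left out 1 library, and 68.0% of its windows were unique. Zfp809, which silences retroviruses by binding their primer-binding site, had 51.4, 55.8 and 55.5 CPM with CTRL and 68.0, 66.7 and 62.7 CPM with CHD4-APR. Every CHD4-APR library exceeded every CTRL library, and it rose by 0.28 ± 0.053 (FDR = 6.15e-04).

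The largest change among members with at least 1 CPM was in Zfp871, a KRAB zinc-finger gene with 15 fingers at the edge of a chromosome 17 cluster. Its levels were 7.63, 12.3 and 12.5 CPM with CTRL and 34.6, 41.0 and 29.4 CPM with CHD4-APR. The lowest CHD4-APR library was over the highest CTRL library by a wide margin. The rise was 3.22-fold, a log2 fold change of 1.69 ± 0.14 (SE, FDR = 8.12e-07), and all of its windows were unique. Under 18 other settings it stayed between 1.31 and 1.81. Its 7 neighbours in the cluster had log2 fold changes from -0.19 (Zfp811, FDR = 0.753) to 0.48.

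Zfp445, which with Zfp57 maintains genomic imprints, had 43.7, 55.9 and 54.2 CPM with CTRL and 80.3, 83.5 and 77.4 CPM with CHD4-APR. The groups were well apart, and it rose 1.57-fold, a log2 fold change of 0.65 ± 0.072 (FDR = 5.58e-06). Zfp84 had 8.05, 7.59 and 9.61 CPM with CTRL and 13.4, 13.5 and 12.6 CPM with CHD4-APR, also 1.57-fold higher (FDR = 5.44e-05). Zfp971 on chromosome 2 had 6.94, 8.57 and 8.57 CPM with CTRL and 13.8, 13.5 and 11.6 CPM with CHD4-APR. It rose 1.61-fold (FDR = 5.78e-05), but 77.9% of its windows were unique. Zfp275, on the X chromosome and with no KRAB pattern, had 2.96 to 3.05 CPM with CTRL and 4.68 to 6.11 CPM with CHD4-APR, a rise of 1.75-fold (FDR = 1.62e-04).

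Of the other 7 members named for the largest rises, Zfp758, Zfp738, Zfp329, Zfp26 and Zfp597 rose by 0.54 to 0.74 on the log2 scale. Their group means lay between 4.42 and 15.1 CPM with CTRL and between 7.40 and 22.8 CPM with CHD4-APR. Zfp597 shares 27.1% of its exonic bases with exons on the opposite strand, Zfp26 14.2% and Zfp738 9.95%, and since the strand setting of the counting is not given in the sources used here, their reads cannot be told from those of the partner. Zfp781, with a log2 fold change of 1.23, and Zfp967, with 0.64, have 7.56% and 0% unique windows, so their counts depend on how shared reads were assigned. All 12 of these members kept their call when any 1 library was left out.

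**Figure D1:**
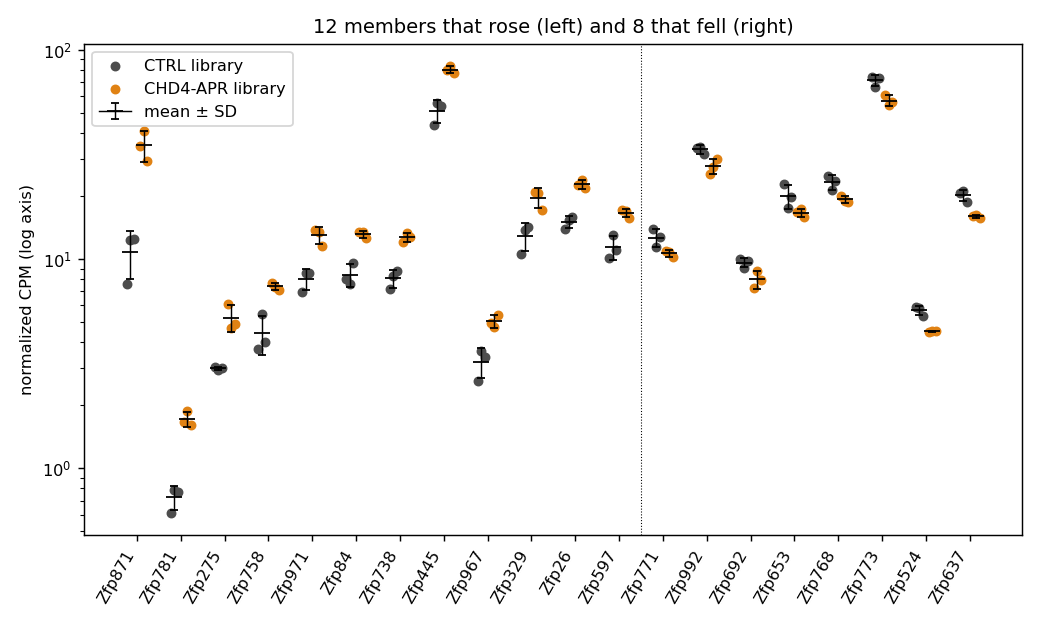
Normalized CPM (log axis) of the 12 members named for the largest rises (left of the dotted line) and the 8 named for the largest falls (right), where points are libraries, dashes means and bars SDs (n = 3). In Zfp871 the CTRL mean of 10.8 CPM and the CHD4-APR mean of 35.0 CPM differ by a larger ratio than in any other gene plotted.

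The falls were smaller. Zfp637 had 20.8, 21.1 and 18.8 CPM with CTRL and 16.0, 16.3 and 15.8 CPM with CHD4-APR. The groups were apart and it fell by 0.33 on the log2 scale (SE 0.069, FDR = 0.00128). Zfp773 had 74.6, 66.5 and 73.5 CPM with CTRL and 60.9, 54.3 and 56.3 CPM with CHD4-APR. It fell by 0.32 (FDR = 3.68e-04), and by 0.51 after the correction described next. Zfp992 on chromosome 4 had 34.1, 34.5 and 31.7 CPM with CTRL and 25.6, 27.7 and 30.1 CPM with CHD4-APR, and fell by 0.27 (FDR = 0.00462) or, corrected, by 0.61, with 71.4% unique windows. Zfp771, Zfp692, Zfp653, Zfp768 and Zfp524 fell by 0.25 to 0.33, and of these only Zfp768 kept its call whichever library was left out. None of these 5 passed after the correction, in which Zfp653 was at -0.20 (FDR = 0.0605), Zfp524 at -0.18, Zfp771 at -0.16, Zfp768 at -0.12 and Zfp692 at -0.11. In Zfp524 51.6% of the exonic bases lie in exons of other genes on both strands.

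The direction of change followed the base composition of the transcripts. The 12677 genes of known length and GC content had Spearman's rho of -0.456 between log2 fold change and GC content, and the 181 members had -0.517. These are correlations across genes of the same libraries, which are not independent replicates. The members had a median GC content of 42.4% against 49.6% in all genes tested. In classes of GC content set after the values were seen, 61 members from 38% to 42% GC had a median of 0.26 with 49.2% called higher, and the 1345 genes of this class had 0.23 and 48.7%. Under 38%, 27 members had a median of 0.25 with 37.0% called higher, against 0.25 and 46.9% in 341 genes. In the 32 members with 52% GC or more the median was -0.08, with 28.1% called lower, against -0.13 and 30.4% in 4675 genes. Between these, 32 members from 42% to 46% had a median of 0.06 with 21.9% called higher, and their class 0.13 and 36.4%. In 29 members from 46% to 52% the median was 0.09 with 17.2% called higher, and in their class 0.00084 and 18.4%.

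**Figure D2:**
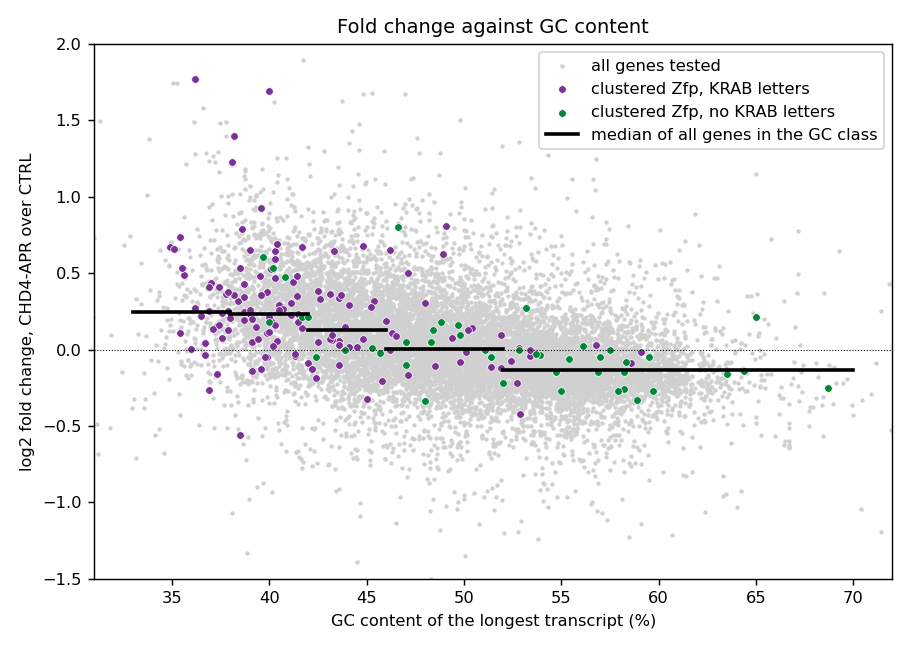
Log2 fold change (CHD4-APR over CTRL) against the GC content of the longest transcript, for all genes tested (grey), clustered Zfp genes with the KRAB pattern (purple) and without it (green), where black bars are medians of all genes in a GC class. Genes beyond the axis limits are not drawn. The bars step down from 0.25 in the class under 38% GC to -0.13 in the class from 52%, and the members scatter about them, with Zfp871 far over its class.

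The trend also separated the libraries. Across all genes, the deviation of a library from the mean of all 6 had Spearman's rho with GC content of 0.463, 0.158 and 0.407 with CTRL and of -0.318, -0.377 and -0.41 with CHD4-APR. Since the groups do not overlap in it, a composition trend of the libraries and an effect of the peptide cannot be told apart here. Smoothing each library's log2 CPM on length and GC content and removing the trend, whatever its source, gave the corrected values. Of the 53 members that were higher before, 28 were still called, and of the 13 lower ones 5 were. At 1.5-fold or more, 5 members passed in place of 15. Both the 28 and the 5 include Zfp600 (1.43, FDR = 0.0416), whose call is no support because of its low counts. Also among the 5 were Zfp781, with 7.56% unique windows, and Zfp382, whose uncorrected call was lost in 3 of the 6 fits that left out 1 library. The share of all genes at this size after the correction was not computed.

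Zfp871 (1.31, FDR = 3.37e-06), Zfp445 (0.40), Zfp84 (0.58), Zfp971 (0.54), Zfp275 (0.66) and Zfp809 (0.23) were among the rises that passed after the correction. Zfp758 (0.43), Zfp738 (0.23), Zfp329 (0.30), Zfp26 (0.19) and Zfp597 (0.24) passed too, at smaller values than before. Among the falls that passed were Zfp992, Zfp773, Zfp637, Zfp444 (fell by 0.23) and Zfp61 (fell by 0.18). Another 11 members that did not pass before were then called lower, among them Zfp846, which fell by 0.51.

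**Figure D3:**
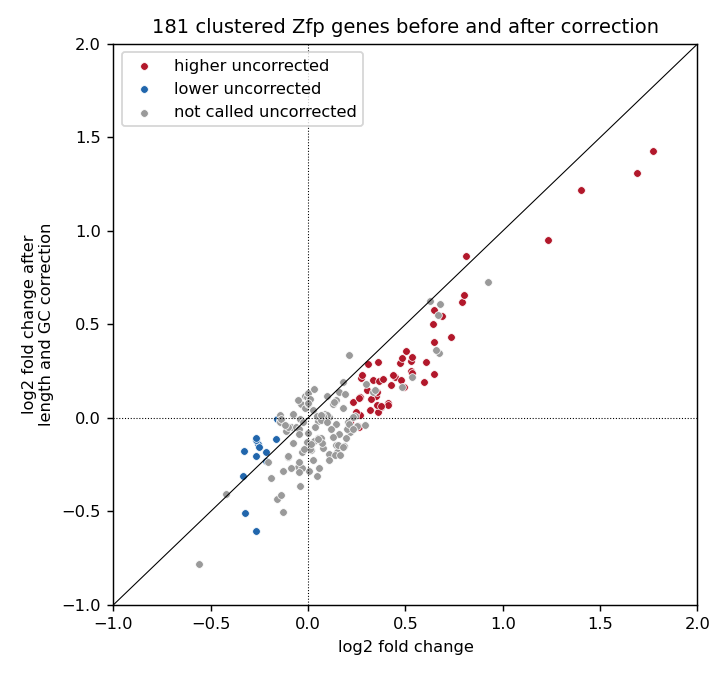
Log2 fold change of the 181 clustered Zfp genes tested before (x axis) and after (y axis) the length and GC correction, colored by the call before correction, with the diagonal of equal values. Most members called higher lie under the diagonal, and the median falls from 0.13 to 0.0068.

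The 137 tested members with the pattern had a median log2 fold change of 0.19, with 47 higher (34.3%) and 4 lower (2.92%). The 44 without it had a median of -0.02, with 6 higher (13.6%) and 9 lower (20.5%). Of all genes tested, 20.4% were higher and 17.8% lower, and of those with under 45% GC, a limit set after the values were seen, 43.5% were higher and 4.91% lower. Of all genes from 45% GC, 12.1% were higher and 22.6% lower. Among solitary Zfp genes, 40.7% of the 27 tested with the pattern and 38.8% of the 67 without it were higher, at median GC contents of 40.6% and 48.6%. The part of GC content in the difference between members with and without the pattern was not tested. Their median GC contents were 40.5% and 52.4%, and after the correction the medians were 0.01 and -0.01. Fold change had Spearman's rho of 0.256 with the number of fingers, 0.0792 with exonic length (0.407 in all genes) and 0.0598 with the share of the 3′ UTR across the 181 members, again as a description across genes of the same libraries. With length, rho after the correction was -0.15 in the members and 0.0358 in all genes. Members with at least 90% unique windows had a median of 0.13, with 39 of 141 higher (27.7%) and 10 lower, and after the correction a median of -0.0058 and 13.5% higher. The 40 tested members with fewer unique windows had a median of 0.16 with 35.0% higher, and of 0.08 with 10 higher after the correction.

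Of the 22 clusters with at least 3 members tested, 17 had a median log2 fold change above 0, and 8 after the correction. Members called higher and none lower occurred in 14 of them, the reverse in 5, and both in 2. Of all single genes, 20.4% were called higher and 17.8% lower. The summed CPM of the cluster was higher in every CHD4-APR library than in every CTRL library in 13 clusters, lower in 3 and overlapping in 6. Of all single genes, 49.9% did not overlap, and of those under 45% GC 58.2%, 1663 of them higher and 290 lower. No share was computed for sums over other groups of genes.

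The cluster with the most members tested, from Zfp677 to Zfp946 at chr17:21383748-22456689, held 18 genes, all with the KRAB pattern. Its summed level was 118, 140 and 126 CPM with CTRL and 156, 158 and 155 CPM with CHD4-APR. The sums did not overlap, and of 16 members tested 13 had a fold change above 0 and 7 were called higher, with a median of 0.25. Within it the log2 fold changes ran from -0.56 (Zfp947, FDR = 0.202) to 0.93 (Zfp995, FDR = 0.135), both under 1 CPM on average, and the largest called rise was 0.74 in Zfp758. The median GC content was 38.6%, and of all genes from 38% to 42% GC 48.7% were called higher, with a median of 0.23. The corrected median of the cluster was -0.0050, with 2 higher and 1 lower, where 11.7% and 16.0% of all genes were called.

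The chromosome 13 cluster from Zfp712 to Zfp273, chr13:67038596-67827002, is the region of the regulator of sex limitation genes and had 19 members with the KRAB pattern. The sums were 75.5, 82.4 and 82.6 CPM with CTRL and 102, 98.4 and 95.4 CPM with CHD4-APR, with no overlap. Of 15 tested members 14 had a fold change above 0 and 5 were called, led by Zfp738, with a median of 0.29 that became 0.03 after the correction. At a median GC content of 39.0%, the cluster lay in the class from 38% to 42%. In that class 48.7% of all genes were called higher, with a median of 0.23. The lowest was Zfp456 (-0.14, FDR = 0.467), of which 59.2% of the exonic bases lie in exons of other genes, and the highest Zfp429 (0.67, FDR = 0.115).

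The chromosome 7 cluster from Zfp84 to Zfp146, chr7:29768552-30169750, had a corrected median of 0.14. Its sums were 111, 119 and 124 CPM with CTRL and 146, 148 and 140 CPM with CHD4-APR, and did not overlap. Of 13 tested members 11 had a fold change above 0 and 5 were called higher, with a median of 0.22. The median GC content was 47.1%, and of all genes from 46% to 52% GC 18.4% were called higher. After the correction 5 members were called again, where 11.7% of all genes were called higher. They were not the same 5, since Zfp260 lost its call (-0.02, FDR = 0.809) and Zfp146 gained one, both named after their values were seen. Zfp382 (0.81, FDR = 0.0276) was the highest and Zfp566 (-0.11, FDR = 0.773) the lowest. Zfp382 lost its call in 3 of the 6 fits that left out 1 library. Zfp568, which represses a placental promoter of Igf2 and is named here after its values were seen, had 16.0 ± 2.27 CPM with CTRL and 22.7 ± 1.84 with CHD4-APR (SD, n = 3), a log2 fold change of 0.50 (FDR = 4.95e-04).

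In the chromosome 17 cluster from Zfp871 to Zfp563, chr17:32765496-33110705, the sums were 57.9, 67.7 and 65.3 CPM with CTRL and 94.5, 101 and 87.7 CPM with CHD4-APR. Zfp871 made up most of this difference, and the median over 8 members was 0.24, or 0.03 corrected. The chromosome 4 cluster from Zfp989 to Zfp933, chr4:146971976-147848366, one of several whose deletion in mice is known to release retrotransposons, had the highest median of the 22 clusters with at least 3 members tested. All 6 tested of its 10 members lay above 0, from 0.0059 (Zfp985, FDR = 0.972) to 0.79 (Zfp982, FDR = 0.0322), with a median of 0.38 and of 0.12 after the correction. Zfp982 was called although its groups overlapped, and lost the call in 4 of the 6 fits that left out 1 library.

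Several clusters of GC-rich genes had medians below 0. The chromosome 7 cluster from Zfp553 to Zfp629, chr7:127233061-127615797, had summed levels of 122, 105 and 115 CPM with CTRL and 104, 100.0 and 99.9 CPM with CHD4-APR, all lower. Its 8 members had a median GC content of 53.5% and a median log2 fold change of -0.10, from Zfp768 (-0.27, called) to Zfp747 (0.0072, FDR = 0.965), with 3 called lower. Of all genes with 52% GC or more, 30.4% were called lower. The corrected median of the cluster was -0.03, and its 3 falls lost their calls. In the cluster from Zfp628 to Zfp580, chr7:4915217-5053723, where no member has the KRAB pattern and the median GC content was 58.9%, the sums were 88.5, 81.2 and 83.9 CPM with CTRL and 79.0, 78.9 and 77.6 CPM with CHD4-APR. Its median was -0.05, from Zfp524 (-0.33) to Zfp580 (0.21, FDR = 0.721), and 2 of 5 were called lower, of which both calls were lost after the correction, with a median of -0.0058. The cluster from Zfp954 to Zfp772, chr7:7114690-7209998, which holds Zfp773, differed. Its 4 members have the KRAB pattern, and its sums of 101, 94.5 and 99.7 CPM with CTRL were above the 87.0, 80.5 and 82.9 CPM with CHD4-APR. Zfp773 made up most of this difference, with means of 71.5 and 57.1 CPM, where the cluster sums had means of 98.5 and 83.5 CPM. Zfp954 (-0.015, FDR = 0.874) and Zfp772 (-0.20, FDR = 0.321) did not pass. The median over the 3 tested members was -0.20, and -0.23 after the correction.

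The other clusters with at least 5 members tested had medians from -0.04 to 0.19. In the chromosome 6 cluster from Zfp786 to Zfp746 the sums were 151 to 158 CPM with CTRL and 153 to 156 with CHD4-APR, and log2 fold changes ran from -0.42 (Zfp786, FDR = 0.373) to 0.32 (Zfp398, FDR = 0.00336, and 0.04 with FDR = 0.75 after the correction). In the chromosome 9 cluster from Zfp560 to Zfp846 they ran from -0.13 (Zfp846, FDR = 0.323) to 0.59 (Zfp26). On chromosome 7, they ran from -0.22 (Zfp444) to 0.36 (Zfp667, FDR = 6.89e-05) between Zfp787 and Zfp28. Between Zfp329 and Zfp446 they ran from -0.04 (Zfp324, FDR = 0.879) to 0.61 (Zfp329). From Zfp180 to Zfp94 the range was -0.22 (Zfp61, FDR = 0.0147) to 0.19 (Zfp93, FDR = 0.439), and from Zfp60 to Zfp850 it was -0.10 (Zfp59, FDR = 0.544) to 0.35 (Zfp626, FDR = 0.00773, and 0.12 with FDR = 0.399 after the correction). Zfp61 lost its call in 2 of the 6 fits that left out 1 library.

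**Figure D4:**
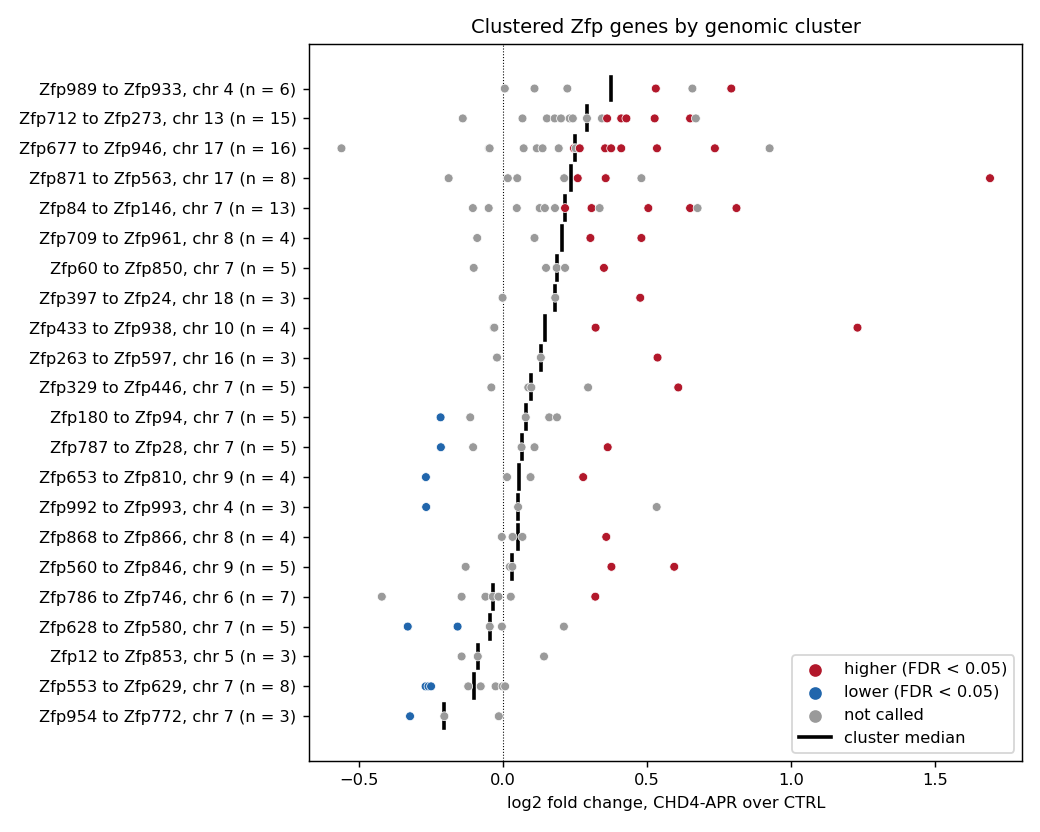
Log2 fold change (CHD4-APR over CTRL) of each tested member in the 22 clusters with at least 3 members tested, ordered by the cluster median (black bar), with members called higher in red, called lower in blue and not called in grey. Medians run from -0.20 (Zfp954 to Zfp772) to 0.38 (Zfp989 to Zfp933), and Zfp871 stands alone at 1.69.

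Solitary Zfp genes were also called higher more often than lower. Of the 133 solitary Zfp genes 94 were tested, and 37 were higher (39.4%) and 4 lower (4.26%), with a median of 0.09. Of all genes, 20.4% were called higher and 17.8% lower. After the correction 20 solitary genes were higher (21.3%) and 13 lower (13.8%), with a median of 0.03. The corrected shares were 16.0% and 8.84% of the clustered members and 11.7% and 16.0% of all genes. The difference between clustered and solitary genes was not tested. The other protein-coding genes lying within the clusters had a median of -0.02, with 10 of 55 tested higher (18.2%) and 16 lower (29.1%), and a median GC content of 51.9%.

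The genes through which KRAB zinc-finger proteins act were described by a list of 27 corepressor and heterochromatin genes, all of them tested. Of these, 11 were higher (40.7%) and 0 lower by edgeR, with 0 lower by DESeq2 and limma-voom and 2 lower at an unadjusted p under 0.05, and the median log2 fold change was 0.14. Of all genes, 20.4% were called higher and 17.8% lower. The list's GC content had a median of 48.3% and its exonic length of 5489 bases, against 3688 bases in all genes. After the correction 5 were higher (18.5%) and 1 lower (3.7%), with a median of 0.02, where 11.7% and 16.0% of all genes were called.

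Trim28, the corepressor that KRAB domains bind, had 194 ± 4.22 CPM with CTRL and 182 ± 3.21 CPM with CHD4-APR (SD, n = 3), and did not pass (-0.09, FDR = 0.0873). Setdb1, the methyltransferase, did not pass either (0.14, FDR = 0.0596), nor did Chd4 (0.05, FDR = 0.322). Those that rose included the chromatin remodeler Atrx, from 69.1 ± 7.15 to 115 ± 7.27 CPM (0.73 ± 0.066, FDR = 1.17e-06). Fam208a, a subunit of the HUSH silencing complex, went from 36.0 ± 2.9 to 54.2 ± 0.974 CPM (0.59, FDR = 2.80e-06). Of the ChAHP subunit Adnp and its paralog Adnp2, Adnp rose by 0.51 (FDR = 0.018) and Adnp2 by 0.41 (FDR = 4.51e-05). Adnp was at 0.43 after the correction, which did not pass (FDR = 0.051), and lost its call in 3 of the 6 fits that left out 1 library, with values from 0.45 to 0.59. Morc3 (0.43), the remodeler Smarcad1 (0.39), the HP1 genes Cbx1 (0.29) and Cbx5 (0.27), the SETDB1 partner Atf7ip (0.28), the HUSH subunit Pphln1 (0.16) and the HP1-binding Pogz (0.14) completed the list of rises. Pphln1 lost its call in 4 and Pogz in 3 of the 6 fits that left out 1 library. Of all 11, Atrx (0.30), Fam208a (0.18), Adnp2 (0.38), Morc3 (0.25) and Cbx1 (0.19) passed after the correction, with these corrected log2 fold changes, in which Cbx3 was called lower (-0.21, FDR = 0.00125).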

How the data were processed

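RNA of 6 samples was sequenced after polyA selection. The authors trimmed the reads with Cutadapt, used STAR 2.7.10a for alignment to GRCm38 and featureCounts for counts per Ensembl gene. The deposited values are raw counts, not normalized, and the strand setting and the treatment of multimapping reads are not given in the sources used here. Another 2 columns of the deposited table match no sample and were not used.

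Genes were named and located with GENCODE M21 on GRCm38, which held 48349 of 48709 identifiers. GC content was that of the longest transcript. Fingers and KRAB boxes were patterns of letters searched in translated GENCODE coding sequences, in place of the RefSeq proteins planned. Promoters came from RefSeq. Counts were compared in R 4.3.3 with edgeR 4.0.16 (filterByExpr, TMM, quasi-likelihood F-test without a block, FDR under 0.05 by Benjamini-Hochberg), where the SE was the fold change divided by the root of F. Log2 CPM used a prior count of 2. In the correction, the trend of each library with length and GC content was fitted with mgcv 1.9.3 and passed to edgeR as offsets. Alternatives were DESeq2 1.42.0, limma-voom (limma 3.58.1), other scalings, filters, thresholds and distances, a replicate block and leaving out each library. The procedures were tested on simulated counts with known changes. No replicate was a copy of another, since all pairs differed beyond sampling noise.

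The members and lists were chosen with earlier results of these data known. The rule for names took the 12 largest rises and 8 largest falls among members with an FDR under 0.05, at least 1 CPM and no overlap, the highest and lowest member of each cluster with at least 5 tested, the 3 highest levels per kb, and the corepressor genes that passed. Counts per library give the precision of each value.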

Additional observations from a re-analysis of the deposited data

How the results depend on the processing

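With the correction for length and GC content the members higher numbered 29 in place of 53, their median log2 fold change was 0.0068, 8 clusters had a median above 0, 1479 of all genes were higher, and of the corepressor genes 5 were higher and 1 lower. With the replicate block and this correction together, the members higher numbered 30 and lower 23, with a median of 0.0062 and 9 clusters above 0, 1668 of all genes were higher, and of the corepressor genes 6 were higher and 2 lower. The correction turned Cbx5 to -0.0216. With the block as well, Cbx5 was at -0.021, Atf7ip at -2.01e-04 and Zfp985, then called, at -0.29.

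The replicate block alone gave 60 members higher and 13 lower, with a median of 0.13. Samples with the same number correlated in their deviations at 0.0697, 0.0552 and -0.035. Only the samples numbered 1 and 2 correlated best with their own number, so whether the numbers pair the samples is not known. At an FDR under 0.01, 34 members were higher and 5 lower, and 1308 of all genes were lower. Of the corepressor genes, 1 was lower among protein-coding genes only and 2 with upper quartile scaling. With 1 library left out, the members lower ranged from 6 to 13, those higher from 43 to 52, their median from 0.09 to 0.17, and the corepressor genes lower from 0 to 1. DESeq2 and limma-voom gave 48 and 52 members higher. Among members with at least 10 counts in every library, 53 were higher and 13 lower. Other distances and the limit on unique windows kept the median between 0.13 and 0.14. Of the 20 members named for a rise or fall, 15 were called under all 18 alternatives. The 3 samples per group and low counts limit the precision of members under 1 CPM.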
